A study of Mus musculus with 6 samples.

Results

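Open chromatin was described around 10 genes whose products organise synapses from astrocytes: the thrombospondins Thbs1, Thbs2 and Thbs4, the SPARC family members Sparc and Sparcl1, the glypicans Gpc4, Gpc5 and Gpc6, the BMP antagonist Chrdl1 and the neuroligin Nlgn2. A peak belonged to a gene when its summit lay in the gene body or within 100 kb of the transcription start site (TSS) of the GENCODE gene model in mm10. The windows held 361 of 160874 sites, a site reaching 200 bp to either side of a summit, with a peak in at least 2 of the 6 libraries. The peak lists held 421, 405 and 450 such peaks in GR-con and 400, 388 and 403 in GR-KO.

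ATAC-seq marks open chromatin by where the Tn5 transposase inserts adapters. Nuclei were from the primary visual cortex (V1) of mice with a floxed glucocorticoid receptor gene Nr3c1 (GR fl/fl), taken at postnatal day (P) 21. The mice had received AAV2/5 in which the GfaABC1D promoter drives Cre, joined by T2A to EGFP-KASH, with the 4x6T element (GR-KO, 3 libraries) or the same virus with inactive ΔCre (GR-con, 3 libraries) at P0 to P1, so both conditions carried the floxed alleles and a virus. The GfaABC1D promoter limits Cre to astrocytes, labelled nuclei were sorted to 50000 events, and each library was pooled from 3 to 4 animals.

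Astrocytes tell neurons when to form, strengthen and stabilise synapses largely through secreted or shed proteins. Thrombospondins bind the calcium channel subunit α2δ-1 and start structurally normal but silent excitatory synapses, and glypicans bring AMPA receptors to such synapses. SPARC-like 1 (hevin, from Sparcl1) bridges neurexins and neuroligins to build excitatory synapses, and SPARC counters it. Chordin-like 1 favors mature AMPA receptors, and neuroligin 2, a membrane protein rather than a secreted one, binds neurexins.

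The lists held 179462 to 198929 peaks, of which 0 of 1116429 ended beyond its mm10 chromosome. The caller's fold and −log10 p of a peak together fix the number of extended reads over its summit (the summit pileup) and the local background they were compared with. Solved this way, the pileup was a whole number to within 0.05 for 100% of peaks in each library. The lowest background of a library, which follows its depth, was 4.29, 4.31 and 4.92 reads in GR-con and 4.54, 4.28 and 4.34 in GR-KO. Peaks at the start sites of 6 of 8 astrocyte markers were present in all 6 libraries, with list medians at the 86.8 to 87.9 percentile of −log10 p in GR-con and 85.2 to 86.5 in GR-KO. The medians were 0 to 40.2 for 5 neuronal markers, 0 to 5.97 for 3 of oligodendrocytes, 68.8 to 77.1 for 2 of oligodendrocyte precursors, 0 to 35.1 for 3 of microglia and 12.3 to 34.8 for 3 of endothelial cells. The other 2 astrocyte markers, Aqp4 and Aldh1l1, had no peak in any library. Single markers of other cells stood higher than these medians, each in all 6 libraries. They were Snap25 of neurons at 85.8 to 89.7, Cspg4 of precursors at 86.7 to 89.3, P2ry12 of microglia at 58.7 to 72.9 and Mbp of oligodendrocytes at 24.2 to 63.3. The deletion itself was not checked, since a peak list holds no coverage over the floxed part of Nr3c1.

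Of the 7 sites with peaks in both conditions that differed between them, 6 lay in the windows of the SPARC family. By rank of −log10 p, GR-KO was lower at 4 sites of Sparc and 2 of Sparcl1. Of the Sparc sites 1 was nearest to the Atox1 TSS, and neither Sparcl1 site was nearest to the Sparcl1 TSS. The Sparc sites included the promoter at the Sparc-202 start and the intron behind it. There the summit pileup in GR-con was 2.25 to 2.51 times that in GR-KO. None of the 6 was called by rank of fold (limma adjusted p from 0.169 to 0.952) or passed without limma's variance trend. With peaks matched by covered length, only the promoter and intron sites still passed, both with the same values (limma adjusted p = 0.0253). No site in the SPARC family windows was higher. In the glypican windows, 1 site of Gpc6 was higher. A further 3 called sites, 1 of Sparc and 2 of Gpc4, had peaks in 1 condition alone. None of the sites of Thbs1, Thbs2, Thbs4, Chrdl1 or Nlgn2 was called by rank of −log10 p. Of them, 3, 0, 1, 0 and 2 had an unadjusted p under 0.05, a level that 13.4% of all sites reached.

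These calls compare ranks. Within each library, sites were ranked by the −log10 p of their peak, ranks were turned into normal scores with absent peaks tied lowest, and scores were compared with limma (adjusted p under 0.05 over all sites). Of the 361 sites, 8 (2.22%) were lower in GR-KO, against 0.839% of all sites, and 2 (0.554%) were higher, against 0.764% of all. Leaving out 1 library gave 2, 2 and 3 lower sites without GR-con 1, 2 and 3, 4, 5 and 5 without GR-KO 1, 2 and 3, and 0 higher sites in each case. Of these 10, the 3 with peaks in 1 condition alone (Sparc at 11.3 kb and both Gpc4 sites, 2 of the 8 lower and 1 of the 2 higher) were kept only through it, so they had to differ and are described below without their p. Without limma's variance trend, the other 6 lower sites, all in the SPARC family windows, no longer passed (adjusted p from 0.0623 to 0.278), nor did the Gpc6 site (0.247). The median score difference, GR-KO minus GR-con, was −0.03 over these sites and 0.01 over all sites. By rank of fold, 1 site was lower, the Sparc site at 11.3 kb that was kept through GR-con alone (0.127% of all sites) and 0 were higher (0.0615% of all), with 46 of the 361 (12.7%, against 12.1% of all) at an unadjusted p under 0.05. Groups did not overlap at 46 sites with GR-KO below GR-con (12.7%, against 8.46% of all) and at 22 with GR-KO above (6.09%, against 11% of all).

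Summit pileup gave a second measure, fitted only with limma's variance trend, so its dependence on that trend was not tested. At the 216 sites with a peak in all 6 libraries, pileup was divided by the lowest background of its library and compared as log2 values with limma. It fell at 25 sites (11.6%, against 3.93% of all 99768 such sites) and rose at 0 (1.97% of all), with 14 lower sites without GR-con 1, 16 without GR-con 2 or GR-KO 3, and 18 to 29 without each other library, of which 14 to 23 in each such fit were among the 25. In the full fit 57 of the 216 (26.4%, against 17.4% of all) had an unadjusted p under 0.05. The 25 were 8 sites of Sparc, 7 of Sparcl1, 5 of Gpc5, 4 of Gpc6 and 1 of Thbs4, with GR-con 1.32 to 2.53 times above GR-KO. The median log2 difference was −0.18 over the 216 sites and −0.05 over all, and by gene it was lowest at Gpc4, −0.37 over 10 sites of which 0 were called, against −0.25 over 25 at Sparc. The balance of calls over all sites depended on the measure, 52.3% being lower by −log10 p, 67.3% by fold and 66.6% by pileup.

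**Figure D1:**
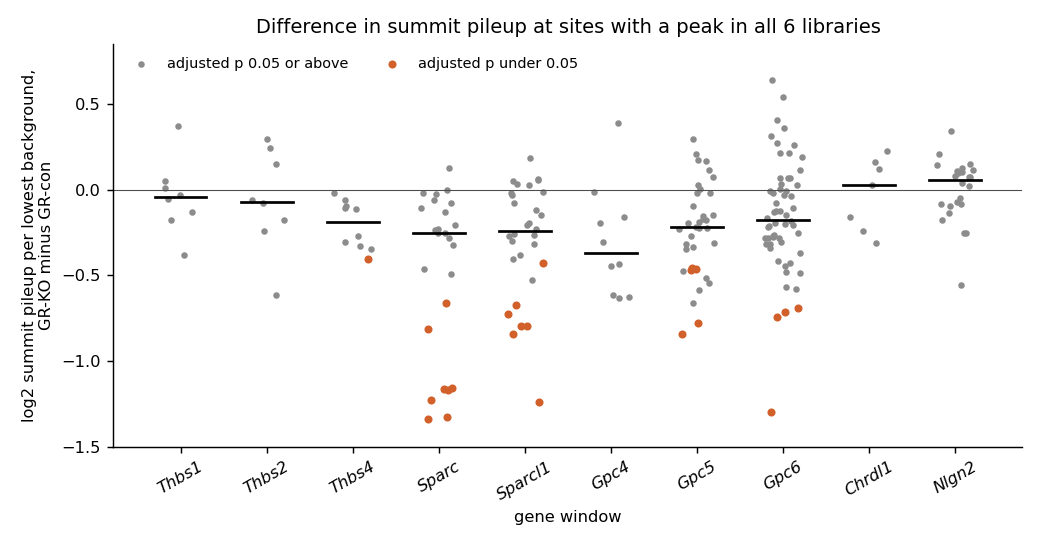
Log2 difference in summit pileup per lowest background (GR-KO minus GR-con, y axis) at each site with a peak in all 6 libraries, by gene window (x axis). Bars are medians and orange points have a limma adjusted p under 0.05, all 25 of them below 0 and 8 of them in the Sparc window.

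Sparc encodes the matricellular protein that counters hevin. Its gene model spans chr11:55394500-55423183 on the minus strand, and its window held 36 sites. The model's most upstream start belongs to Sparc-208, whereas Sparc-201 and Sparc-202 start 3103 and 3285 bp further in. The site centered 3237 bp into the model (chr11:55419746-55420146) therefore lay 48 bp upstream of the Sparc-202 start, in a 5′ untranslated exon, and no site lay within 1 kb of the most upstream start.

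At this promoter site, the summit pileup was 211, 158 and 188 reads in GR-con and 86, 71 and 60 in GR-KO. The lowest GR-con library held 158 reads and the highest GR-KO library 86, so the conditions did not overlap. The −log10 p was 119, 75.9 and 95.6 in GR-con and 44.7, 35.4 and 25.2 in GR-KO, a score difference of −0.47 ± 0.09 (SE, limma adjusted p = 0.00628). On the log2 pileup scale the difference was −1.33 ± 0.15 (SE, limma adjusted p = 9.34e-15). Fold, at 8.34, 6.63 and 7.20 against 6.92, 6.39 and 5.14, was not called (limma adjusted p = 0.649), with a local background of 24.4, 23 and 25.2 reads in GR-con and 11.6, 10.3 and 10.9 in GR-KO. The pileup call held without each library in turn, and that by −log10 p held without GR-KO 1 alone (adjusted p from 0.016 to 0.154).

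The strongest changed site of the gene was centered 435 bp downstream of the Sparc-202 start, in the intron. Its pileup was 316, 319 and 302 reads in GR-con and 153, 131 and 124 in GR-KO, or 312 ± 9.07 against 136 ± 15.1 (SD, n = 3). The fall was larger than the spread between libraries. The −log10 p was 226, 238 and 206 against 111, 96.5 and 84.5, with a score difference of −0.49 ± 0.06 (SE, limma adjusted p = 0.000118), and the log2 pileup differed by −1.17 ± 0.13 (SE, limma adjusted p = 1.57e-16). Both calls held when each library was left out in turn, and that by −log10 p was lost without the variance trend (limma adjusted p = 0.0623). The pileup fit was not run without that trend.

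Fold did not show the change at the intron site either. It was 12.3, 13.3 and 11.4 in GR-con and 12, 12 and 10.5 in GR-KO (limma adjusted p = 0.847 by rank of fold). The local background by which fold is divided was 24.8, 23.1 and 25.7 reads in GR-con and 11.8, 9.98 and 10.9 in GR-KO. The sequence around the summit (plus strand, 151 bp, chr11:55419388-55419538) is shown because this intron site had the smallest p of the window, with the glucocorticoid receptor (GR) hexamer AGAACA, read as TGTTCT on the plus strand, and the NFI hexamer TTGGCA in capitals.
Sparc intron site: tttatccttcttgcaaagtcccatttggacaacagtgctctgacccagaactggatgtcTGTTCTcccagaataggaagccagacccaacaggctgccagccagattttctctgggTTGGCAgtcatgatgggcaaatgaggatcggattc

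Another intron site, 11.3 kb into the model, was called as a peak in GR-con 1, 2 and 3 but nowhere in GR-KO. Its −log10 p was 31.6, 40.9 and 16.6 in GR-con, from pileups of 55, 60 and 38 reads. Since it was kept only through GR-con, its calls support no fall. Its sequence (plus strand, chr11:55411837-55411987), shown for the called Sparc site without a GR-KO peak, held none of the motifs searched in this stretch.
Sparc GR-con site: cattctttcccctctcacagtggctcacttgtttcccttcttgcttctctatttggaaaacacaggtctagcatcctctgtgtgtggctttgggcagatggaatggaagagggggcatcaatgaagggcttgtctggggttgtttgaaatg

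The other changed sites lay upstream. At 1.87 kb upstream of the model, pileup was 81, 98 and 62 reads in GR-con and 30, 26 and 36 in GR-KO. The call by −log10 p there (limma adjusted p = 0.0443) was lost whichever library was left out, whereas that by pileup held in all 6 such fits. At 21.8 kb upstream, nearest the TSS of the copper chaperone gene Atox1, pileup was 183, 196 and 182 against 105, 121 and 121 (log2 difference −0.66 ± 0.14, SE, limma adjusted p = 0.000167). By −log10 p the call there held without GR-KO 2 or GR-KO 3 and was lost without each of the others (highest adjusted p = 0.145).

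By pileup alone, 4 further sites of the window were lower, named after their values were seen. Those 4.86 and 25.5 kb into the model and 30.5 kb from its TSS, past the 3′ end, fell by 1.23, 1.16 and 0.81 on the log2 scale (limma adjusted p = 4.68e-06, 8.34e-05 and 0.00587). The fourth lay 79.1 kb upstream, in an untranslated exon of G3bp1, and fell by 1.16 (limma adjusted p = 0.000612). At 25.5 kb, inside Sparc, the libraries read 64, 70 and 65 against 32, 26 and 29.

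Not all of the neighborhood moved. The strongest site of the window, 46.3 kb upstream and nearest G3bp1, held 747, 771 and 717 reads in GR-con and 801, 831 and 745 in GR-KO, with overlapping conditions. Beyond the 3′ end, the log2 pileup at the site 53.9 kb from the TSS differed by −0.00 (limma adjusted p = 0.998). Of the 25 Sparc sites with a peak in every library, 24 had a lower log2 pileup in GR-KO, against 58.7% of all such sites, while by rank of fold 19 of the 36 were lower, and without each library in turn 7 or 8 sites were lower by pileup.

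**Figure D2:**
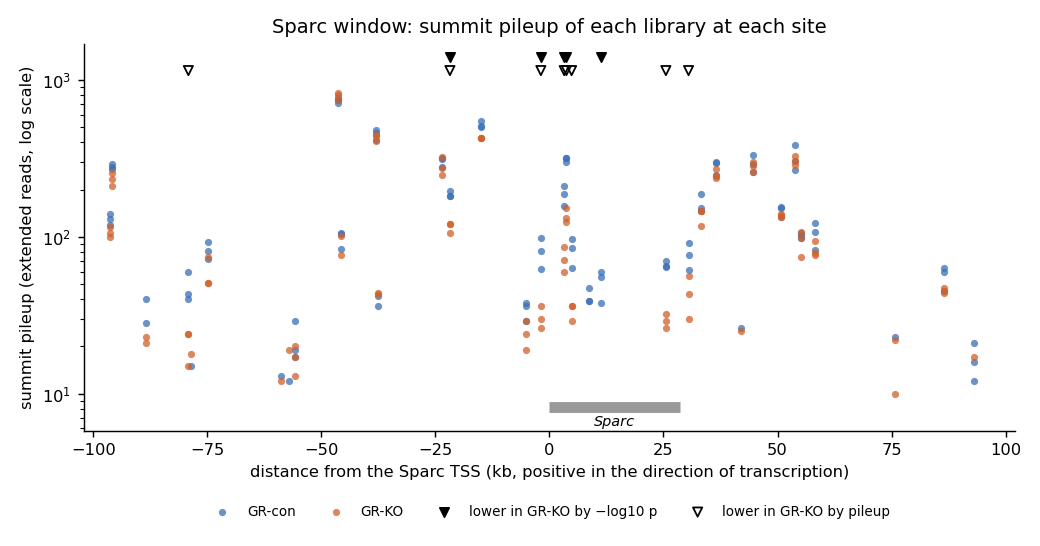
Summit pileup (y axis, log scale) of each library at the 36 sites of the Sparc window by distance from the TSS (x axis, kb), GR-con blue and GR-KO orange, with the gene in gray. Filled triangles mark the 5 sites lower in GR-KO by −log10 p and open triangles the 8 lower by pileup, most of them in or next to the gene.

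Sparc is also expressed by microglia and endothelial cells. The microglial start site P2ry12 lay at the 60.0, 70.3 and 70.4 percentile in GR-con and 66.5, 58.7 and 72.9 in GR-KO, Csf1r was found in 2 lists of GR-con and 1 of GR-KO, and Cx3cr1 had none. Of the endothelial genes, Cldn5 lay at 33.9, 49.9 and 34.8 in GR-con and 12.3, 26.8 and 27.7 in GR-KO, without overlap, Flt1 overlapped between conditions, and Pecam1 had no peak. The part of such cells in the Sparc result was not tested, and in bulk nuclei less open chromatin per cell and fewer cells of a type cannot be told apart.

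Sparcl1 encodes hevin, the synapse-building relative of SPARC. It lies at chr5:104079111-104113733 on the minus strand, and its window held 47 sites. Its promoter, 12 bp upstream of the TSS, showed 380, 341 and 414 reads in GR-con and 373, 385 and 337 in GR-KO. These values overlapped.

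The clearest change lay downstream of the gene, in introns of the neighboring Nudt9. At the site 51.3 kb from the TSS the pileup was 530, 479 and 458 reads in GR-con and 284, 270 and 270 in GR-KO. The lowest GR-con library held 458 reads and the highest GR-KO library 284. The −log10 p was 425, 370 and 341 against 225, 213 and 211 (score difference −0.47 ± 0.07, SE, limma adjusted p = 0.000719), and the calls by −log10 p and by pileup held without each library in turn. The call by −log10 p was lost without the variance trend (limma adjusted p = 0.113) and when peaks were matched by covered length (0.0542). The pileup fit was not run in either setting.

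As at Sparc, the local background fell too, from 33.1, 32.3 and 33.1 reads to 18.5, 17.7 and 17.9, and fold was 15.6, 14.4 and 13.4 against 14.6, 14.5 and 14.3. Sites at 53.1, 53.9 and 60.5 kb were lower by pileup as well (log2 differences −0.80, −0.67 and −1.24). The strongest site of the window, at 66.9 kb in an untranslated exon of Nudt9, overlapped between conditions, with 581, 632 and 609 reads against 598, 633 and 587. The sequence at the summit of the 51.3 kb site (plus strand, chr5:104062382-104062532) is shown because this had the highest pileup of the sites called near the 10 genes, with its GR hexamer in capitals.
Sparcl1 downstream site: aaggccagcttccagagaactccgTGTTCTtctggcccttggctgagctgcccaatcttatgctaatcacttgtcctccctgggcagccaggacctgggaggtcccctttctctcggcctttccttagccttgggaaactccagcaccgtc

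The second Sparcl1 site lower by −log10 p lay 59.6 kb upstream, in an intron of Dspp. Its pileup was 133, 139 and 149 reads in GR-con and 84, 61 and 86 in GR-KO, with a log2 difference of −0.85 ± 0.16 (SE, limma adjusted p = 1.5e-05). The call by −log10 p (limma adjusted p = 0.017) held without GR-KO 3 and was lost without each of the other libraries, with a highest adjusted p of 0.154. A site 35.7 kb upstream had peaks in GR-con alone (−log10 p of 12.7, 12.7 and 4.25 in its 3 libraries), and it was not called.

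Within Sparcl1, the intron site 5.03 kb from the TSS was singled out after its values were seen, because it held a full GR palindrome. Its pileup was 206, 207 and 191 reads in GR-con and 141, 157 and 140 in GR-KO (log2 difference −0.43 ± 0.13, SE, limma adjusted p = 0.027). It was not called by −log10 p (limma adjusted p = 0.194), and the pileup call was lost without GR-con 1, GR-con 2, GR-KO 1 or GR-KO 3 (highest adjusted p = 0.166). The sequence (plus strand, 299 bp, chr5:104108552-104108850) has the palindrome, GNACANNNTGTNC, in capitals.
Sparcl1 intron site: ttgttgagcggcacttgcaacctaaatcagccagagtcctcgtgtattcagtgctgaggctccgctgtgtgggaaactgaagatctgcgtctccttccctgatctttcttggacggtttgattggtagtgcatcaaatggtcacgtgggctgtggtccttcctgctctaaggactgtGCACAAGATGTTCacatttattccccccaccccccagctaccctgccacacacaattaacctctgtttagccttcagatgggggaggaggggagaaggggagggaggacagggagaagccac

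**Figure D3:**
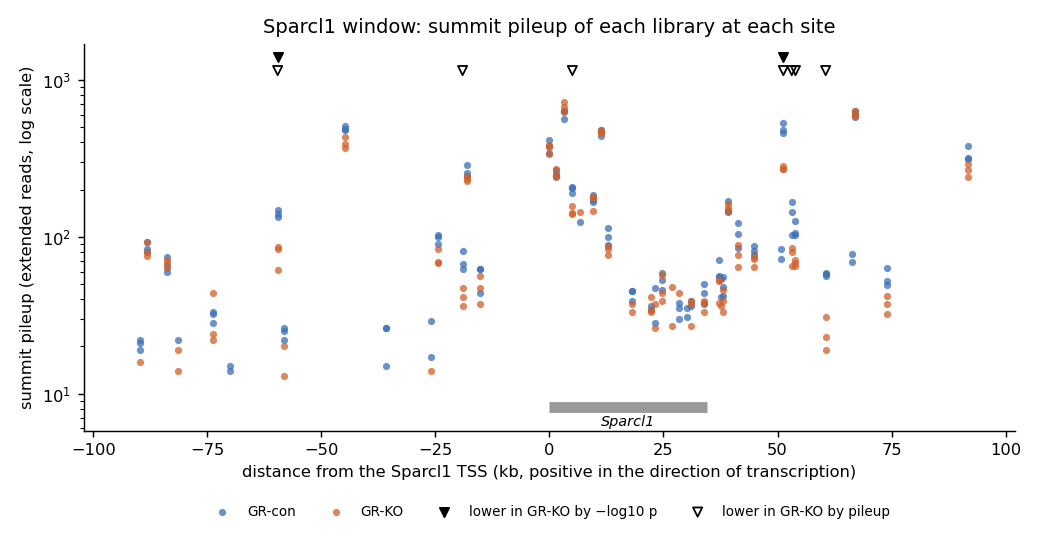
Summit pileup (y axis, log scale) of each library at the 47 sites of the Sparcl1 window by distance from the TSS (x axis, kb), GR-con blue and GR-KO orange, with the gene in gray. Filled triangles mark the 2 sites lower in GR-KO by −log10 p and open triangles the 7 lower by pileup, 4 of them between 51.3 and 60.5 kb, while the promoter at 0 overlaps between conditions.

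Gpc4 and Gpc6 encode the glypicans that raise AMPA receptors at synapses, and Gpc5 another family member. Their promoters are described by their levels. Pileup at the Gpc4 promoter was 201, 222 and 179 reads in GR-con and 197, 183 and 199 in GR-KO, at that of Gpc5 414, 383 and 441 against 393, 437 and 364, and at that of Gpc6 264, 258 and 261 against 215, 257 and 228. At all 3 the conditions overlapped once pileup was divided by the lowest background of its library.

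Gpc4 (chrX:52053021-52165252, minus strand, 19 sites) had 1 upstream site with peaks in GR-con alone and 1 with peaks in GR-KO alone. At 28.2 kb upstream, −log10 p was 19.7, 8.87 and 14.5 in GR-con with no peak in GR-KO. At 97.1 kb upstream it was 21.7, 7.65 and 32.9 in GR-KO with no peak in GR-con. Pileups were modest, 21 to 34 reads at the first and 22 to 50 at the second. Neither call held in any fit that left out 1 library, and the second had no value without GR-KO 2. With peaks matched by covered length, the score difference went from −1.25 to −0.63 at the first and from 1.52 to 0.21 at the second. The contrast at these sites therefore depended on matching peaks by summit. The sequences (plus strand, chrX:52193410-52193560 and chrX:52262244-52262394) are shown as 2 sites of 1 gene with peaks in opposite conditions.
Gpc4 GR-con site: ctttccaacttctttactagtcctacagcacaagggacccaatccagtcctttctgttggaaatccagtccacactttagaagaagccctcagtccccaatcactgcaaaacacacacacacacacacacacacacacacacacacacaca
Gpc4 GR-KO site: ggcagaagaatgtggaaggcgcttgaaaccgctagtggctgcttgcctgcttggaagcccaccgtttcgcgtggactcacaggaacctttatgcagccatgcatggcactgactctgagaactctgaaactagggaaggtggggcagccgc

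Gpc6 (chr14:116925315-117976544, plus strand) spans over 1 Mb and held the most sites, 104. The higher site lay 11.6 kb upstream, with −log10 p of 6.83 and 6.79 in GR-con 1 and GR-con 2, no peak in GR-con 3, and 32.5, 34.7 and 16 in GR-KO. Its pileup was 18 and 18 reads against 48, 49 and 30, and its score difference was 1.12 ± 0.27 (SE, limma adjusted p = 0.0409, 0.105 to 0.224 in the fits that left out 1 library). Its sequence (plus strand, chr14:116913653-116913803) is shown for the higher Gpc6 site, with an NFI hexamer, read as TGCCAA, in capitals.
Gpc6 upstream site: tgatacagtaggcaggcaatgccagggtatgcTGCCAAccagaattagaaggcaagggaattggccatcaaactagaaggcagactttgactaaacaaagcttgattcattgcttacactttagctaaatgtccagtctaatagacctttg

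By rank of −log10 p, the conditions did not overlap at 10 of its 104 sites with GR-KO lower and at 12 with GR-KO higher. Over all sites these shares were 8.46% and 11%. Of the 58 Gpc6 sites with a peak in every library, 4 intron sites were lower by pileup, against 3.93% of all such sites. They fell by 0.69 to 1.30 on the log2 scale. That 835.8 kb from the TSS differed most, with 64, 52 and 65 reads in GR-con and 26, 26 and 20 in GR-KO (limma adjusted p = 2.01e-05, and 0.0591 by −log10 p). The TSS nearest to 3 of the 4 was that of Dct. A weak intron site at 442.2 kb had peaks of 14, 14 and 17 reads in GR-KO and none in GR-con. Fits that left out 1 library gave 1 to 6 lower sites by pileup in this window, 1 to 3 of them among the 4.

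Gpc5 (chr14:115092215-116525179, plus strand, 68 sites) had 0 sites called by −log10 p, with 8 at an unadjusted p under 0.05, a lower share than the 13.4% of all sites, and these 8 were all lower in GR-KO. By pileup 5 of the 36 sites with a peak in every library were lower, against 3.93% of all such sites. Of these, 4 lay in introns and 1 at 74.4 kb upstream, with GR-con 1.37 to 1.79 times above GR-KO. The site 352.8 kb from the TSS, for example, held 234, 199 and 230 reads against 167, 173 and 130 (log2 difference −0.47 ± 0.13, SE, limma adjusted p = 0.010). The site with the smallest p by −log10 p, at 314.5 kb, had peaks of 40, 27 and 43 reads in GR-con and of 20 reads in GR-KO 2 only, and was not called. Without 1 library, 1 to 6 sites were lower by pileup, 1 of them without GR-con 1.

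**Figure D4:**
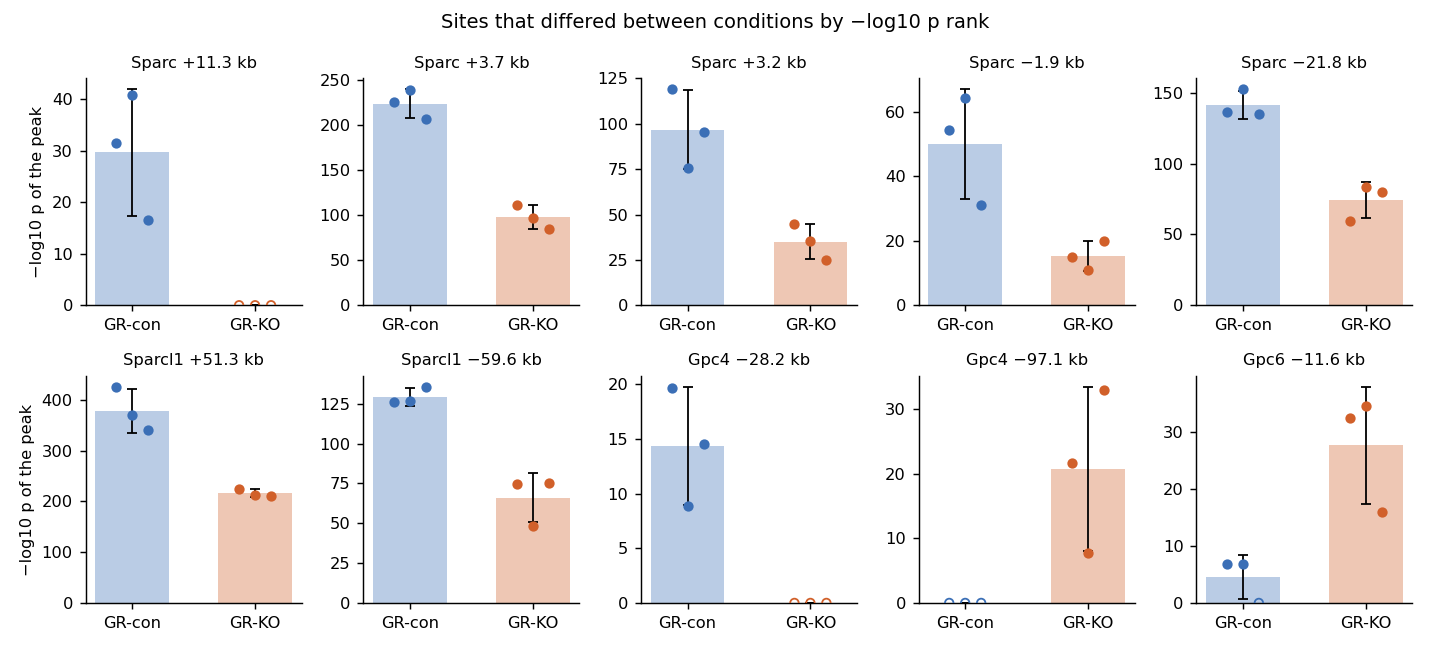
−log10 p of the peak (y axis) in each library at the 10 sites called by rank of −log10 p, 3 of them kept through 1 condition alone, titled by gene and distance from the TSS. Bars and error bars are the mean and SD of 3 libraries, and open circles are libraries with no peak, drawn at 0. GR-KO is lower in 8 panels and higher in the Gpc4 −97.1 kb and Gpc6 −11.6 kb panels.

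The thrombospondin windows showed few differences. The Thbs1 promoter (gene at chr2:118111876-118127133, plus strand) held 61, 55 and 79 reads in GR-con and 61, 56 and 50 in GR-KO. That of Thbs2 (chr17:14665500-14694235, minus strand) held 24, 38 and 35 against 35, 40 and 35. That of Thbs4 (chr13:92751590-92794818, minus strand) held 73, 71 and 59 against 51, 49 and 55. Divided by the lowest background of each library, the conditions overlapped at all 3, at Thbs4 with 17, 16.5 and 12 against 11.2, 11.4 and 12.7.

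In the same windows, the site 98.5 kb upstream of Thbs1, in an intron of Gm13986, had peaks of 21, 20 and 20 reads in GR-KO and none in GR-con. It was not called, and passed by both ranks only without the variance trend (limma adjusted p = 0.0086 and 0.0104), but it too was kept through 1 condition alone. The Thbs4 site 85.4 kb upstream, nearest Mtx3, held 208, 244 and 234 reads against 166, 179 and 160 and was lower by pileup (limma adjusted p = 0.0324) but not by −log10 p (0.253), and the pileup call was lost without GR-con 1, GR-con 2, GR-KO 1 or GR-KO 3. For Thbs2 the smallest p, at 69.6 kb downstream, gave a limma adjusted p of 0.390. Per lowest background that site read 8.9, 7.9 and 8.7 in GR-con and 6.0, 5.4 and 5.3 in GR-KO. The strongest Thbs2 site, 2180 bp from the TSS, read 29.8, 26.2 and 28.9 against 23.6, 23.3 and 24.9. Neither overlapped between conditions on this scale, and neither was called by any of the 3 measures.

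Chrdl1, which favors mature AMPA receptors, and Nlgn2, the neurexin-binding membrane protein, showed no call by any of the 3 measures. The Chrdl1 promoter (gene at chrX:143285674-143394262, minus strand, 12 sites) held 96, 82 and 108 reads in GR-con and 68, 94 and 89 in GR-KO, overlapping. The Nlgn2 promoter (chr11:69823122-69837784, minus strand, 30 sites) held 204, 215 and 229 against 247, 218 and 233, which overlapped in reads but not per lowest background, at 47.5, 49.8 and 46.6 against 54.4, 50.9 and 53.6. At Nlgn2 the median log2 pileup difference over 24 sites was 0.06, and the nearest to a call was a site 39.3 kb upstream, in Tmem95, with 186, 178 and 185 reads against 210, 233 and 237 (limma adjusted p = 0.0576 by −log10 p and 0.087 by pileup, and 0.0341 by −log10 p when ranks were taken over sites with a peak in all 6 libraries). Only 1 of the 30 sites had its nearest TSS at Nlgn2, so this window mostly describes neighbors.

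Peaks were also counted in each window. Sparc held 39, 39 and 48 peaks in GR-con and 38, 36 and 36 in GR-KO, and Gpc5 held 75, 77 and 80 against 65, 55 and 71. In both, each GR-con library was above each GR-KO library, which gives 0.1, the smallest p that an exact permutation test (two-sided) of 3 against 3 libraries allows. The whole lists separated in the same way, with 184618 to 198929 peaks in GR-con and 179462 to 184056 in GR-KO. With lists shortened to equal length, Sparc held 39, 39 and 46 against 38, 36 and 35, and Gpc5 72, 71 and 71 against 65, 55 and 69. The other 8 genes overlapped between conditions or were tied at an edge, with exact permutation p from 0.2 to 1. Among the related genes, Chrd separated in the same direction, with 36, 34 and 37 peaks against 30, 33 and 32. Spock1 separated in the opposite direction, with 46, 44 and 49 against 54, 55 and 55. The share of all genes that separate was not counted. Peaks in every library of a condition and none of the other were found at 5 sites for GR-con (1.39%, against 1.15% of all sites), 2 at Sparc and 1 each at Sparcl1, Gpc4 and Gpc5, and at 3 sites for GR-KO (0.831%, against 0.622% of all), 1 each at Thbs1, Gpc4 and Gpc6. With 1 library left out, these counts were 7 to 15 for GR-con and 3 to 7 for GR-KO.

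**Figure D5:**
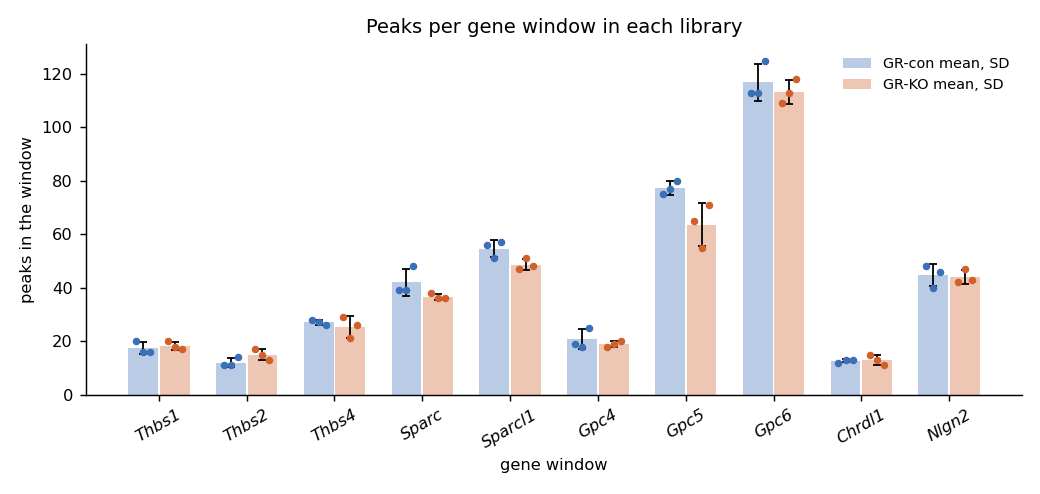
Number of peaks (y axis) whose summit lay in each gene window (x axis), with a point per library and bars for the mean and SD of 3 libraries. GR-con is above GR-KO in every library for Sparc and Gpc5, and the conditions overlap or touch for the other genes.

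GR acts on DNA mostly as a dimer on palindromes built from AGAACA-like hexamers. Over all 160874 sites, 1.01% held the palindrome GNACANNNTGTNC on either strand, and 19.6% of the 1350 sites lower in GR-KO by −log10 p did. Among the 361 sites of these genes 2 held it, the Sparcl1 intron site above and a weak Thbs2 site 53.4 kb upstream with peaks in 2 libraries, and 0 of the 8 lower sites did. The hexamer AGAACA, which a palindrome can contain, was in 4 of the 8, against 30.6% of all sites and 54.4% of the 1350 lower ones. The NFI hexamer TTGGCA was in 5 of the 8 (29.6% of all, 37.5% of the lower) and the AP-1 motif TGACTCA in 0 (7.25% of all, 6.59% of the lower). A match is a description of the letters and not a bound site.

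Related genes gave a comparison from the same pathways: other thrombospondins, SPARC relatives, glypicans, chordins and neuroligins, and the neuronal partners neurexins, α2δ-1, receptor phosphatases, Lrrtm4 and AMPA receptor subunits. Of the 950 sites of these 24 genes, 7 were lower by −log10 p (0.737%) and 7 higher (0.737%), and by pileup 16 of 535 were lower (2.99%) and 11 higher (2.06%). Their median log2 pileup difference was −0.05. Fstl1, a secreted SPARC relative, had 2 lower sites, one 26.7 kb from its TSS with 142, 177 and 111 reads in GR-con and 61, 78 and 40 in GR-KO (limma adjusted p = 0.013). The lower sites also included 1 each at Nrxn2, Nrxn3 and Nlgn1, and the higher sites included 1 each at Comp, Smoc2, Chrd, Ptprs and Nlgn1. Called sites at Spock2 (lower) and Gpc1 (higher) were kept only through the condition where they were high and had to differ. The difference between the lists was not tested.

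At the 100 kb limit, the site just inside, 99.9 kb from the Nlgn2 TSS, had a score difference of −0.32, and that just outside, 102.3 kb from the Thbs4 TSS, one of −0.62, neither past the test. Of the 361 sites, 247 lay in introns, 90 between genes, 16 in untranslated exons and 8 in other exons, counting every annotated gene and not these 10 alone. Replicates were separate pools, so the spread covers pools of animals and not single animals.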

How the data were processed

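ATAC-seq peak lists from 3 GR-con and 3 GR-KO libraries were used, in mm10. The authors processed each library on its own (ENCODE pipeline for ATAC-seq, v2.2.0, multimapping 0, p threshold 0.01). Of the deposited columns, fold is the ratio of the summit pileup to local background, and −log10 p and −log10 q come from the peak caller. The deposited score column was not used. The authors' own test (edgeR in DiffBind on read counts) was not repeated, since peak lists hold no counts.

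Solving fold and p for the summit pileup and background used the caller's Poisson model, with 1 read added to both. Sites were taken 200 bp to either side of summits in order of rank without overlap, a library having a peak when a summit lay within 200 bp of the center. Scores were compared in limma 3.58.1 (R 4.3.3, Python 3.11.15) with a variance trend and Benjamini-Hochberg adjustment, after the fit had been tested on simulated data. Annotation was GENCODE vM21, and sequence was the NCBI GRCm38.p6 assembly, which is mm10.

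Named were sites called by either rank, and for each gene the promoter within 1 kb, the smallest p, the strongest site and the strongest site of 1 condition only. Of these, the strongest sites of Thbs1, Thbs4, Gpc6 and Nlgn2 are not described above, and each overlapped between conditions per lowest background. The smallest p of Chrdl1 and the Gpc5 site of GR-con only are not described either. The pileup fit was planned as an alternative to the rank fits, and its calls are given beside theirs. Members, lists and tests were chosen with earlier results of these data known. Nothing in the labels says which animals entered which pool. Among the related genes, the sites of 1 gene enter the counts and are not reported here by name.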

Additional observations from a re-analysis of the deposited data

How the results depend on the processing

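Counts are for the 361 sites: 8 lower and 2 higher in GR-KO by −log10 p, 1 and 0 by fold, 25 and 0 by pileup, 5 and 3 with a peak in every library of GR-con or GR-KO alone. Matching by covered length gave 3 lower, 0 higher by −log10 p and 5 GR-KO sites. At least 3 libraries per site gave 2 lower by fold. Without the variance trend 3 were lower by −log10 p, with 6 of the 7 SPARC family calls lost, and 2 lower and 3 higher by fold. Sites with all 6 peaks gave 1 higher (Nlgn2, 39.3 kb upstream) by −log10 p and 0 lower by fold. Ranked pileup gave 12 lower and 1 higher, and pileup per background 25 lower and 0 higher, in place of either rank. Within 50 kb, 1 was higher and 1 was a GR-KO site. Keeping sites whose nearest TSS was that of any of the 10 genes left 210 sites, 5 of them lower by −log10 p. The cause of these shifts was not tested.

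The replicate block gave 5 lower and 0 higher by −log10 p and 0 lower by fold, and 26 lower by pileup. The deviations of same-numbered libraries had r = 0.03, −0.01 and 0.03, and those of different-numbered ones r from −0.035 to 0.0096. Values this small cannot decide whether the numbers pair the libraries. Leaving out 1 library gave 2 to 5 lower by −log10 p (2, 2 and 3 without GR-con 1, 2 and 3, and 4, 5 and 5 without GR-KO 1, 2 and 3), 0 higher, 0 lower by fold, 7 to 15 GR-con and 3 to 7 GR-KO sites and 335 to 352 sites in all. Without a library, 14 to 29 were lower and 0 to 2 higher by pileup (14, 16 and 16 without GR-con 1, GR-con 2 and GR-KO 3), an alternative added after seeing the data.

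Rank of fold changed sign at 3 sites, none of them called by fold. The Sparcl1 site at 51.3 kb went from 0.02 to −0.60 by ranked pileup and −0.79 by pileup, and ranged from −0.000496 (without GR-con 2) to 0.0502 when 1 library was left out. That at 5.03 kb went from 0.04 to −0.19, −0.43, −1.04 with all 6 peaks and −0.15 by covered length, and ranged from −0.012 (without GR-con 3) to 0.065. The Thbs4 site at 85.4 kb went from −0.03 to 0.089 by covered length, and ranged from −0.071 to 0.011, above 0 without GR-con 3 or GR-KO 3 (0.00251).

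An absent peak says only that the caller's threshold was not met in that library. The log2 pileup fit leaves out sites without a peak in every library.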
